A study of Mus musculus with 6 samples.

Results

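Fc gamma receptors are the cell-surface proteins through which myeloid cells bind immunoglobulin G (IgG). This account concerns 6 genes of IgG binding and handling: the activating receptors Fcgr1, Fcgr3 and Fcgr4, the inhibitory receptor Fcgr2b, the neonatal Fc receptor gene Fcgrt, and the Fc receptor-like gene Fcrls. They were taken by gene symbol, and all 6 of the 6 symbols sought were among the 15139 rows of the expression table. The 2 groups were mouse bone marrow cells of genotype MxCre+v with Dnmt3a-/-, called Dnmt3a KO, and of genotype MxCre+v with Dnmt3a+/+, called WT. Mx-Cre is an interferon-inducible recombinase that deletes floxed genes in blood-forming cells and in some other tissues, and both groups carried it. Dnmt3a encodes a de novo DNA methyltransferase. Both groups were kept in medium with 10% fetal bovine serum, interleukin 3 (IL3) at 10 ng/ml and stem cell factor (SCF) at 50 ng/ml, and week 1 cultures gave the RNA. The table holds 2 Dnmt3a KO libraries, replicates 2 and 3, and 3 WT libraries, replicates 1 to 3. The labels give no age, do not say how many animals gave marrow, and name the knockout group a knockdown in 1 field. Expression was given as FPKM, a fragment count scaled by transcript length and by library size, which allows levels of different genes to be compared per length.

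The activating receptors bind IgG complexes and signal through a shared partner, the Fc receptor gamma chain Fcer1g, whose tyrosine motif (ITAM) is phosphorylated by Src family kinases and then recruits Syk. Fcgr2b has an inhibitory tyrosine motif (ITIM) of its own and recruits the inositol phosphatase SHIP1, encoded by Inpp5d, which opposes PI3K signalling. The ratio of activating to inhibitory receptors sets the threshold at which immune complexes trigger macrophages, neutrophils and mast cells. Fcgrt encodes the heavy chain of FcRn, which pairs with beta-2-microglobulin and returns IgG from endosomes to the surface, and mouse Fcrls encodes a scavenger-type Fc receptor-like protein found in microglia and some other macrophages.

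Column sums of the deposited FPKM ranged from 560387 to 604368, and the number of reads behind them is unknown. Dnmt3a itself stood at 2.58 and 3.42 FPKM in Dnmt3a KO libraries, against 6.68, 9.99 and 9.04 FPKM in WT libraries, so the 2 groups differed in the direction of their labels. By Xist and Ddx3y, WT replicates 2 and 3 were female, and WT replicate 1 and both Dnmt3a KO libraries were male. Sex is therefore partly confounded with genotype, and adjusted p-values with sex as a covariate are given where they end the call of a named gene. Of the markers of cell types that bone marrow cultures can hold, the summed FPKM of 8 mast cell genes ranged from 27315 to 31539 in Dnmt3a KO libraries and from 11574 to 13295 in WT libraries. Cpa3 made up most of that mast cell sum in every library, averaging 18603 FPKM in Dnmt3a KO and 7120 FPKM in WT libraries. Cma1, Mcpt4 and Hdc of the same list did not pass. The 12 monocyte and macrophage genes summed to between 2645 and 2840 FPKM in Dnmt3a KO libraries, against 6178 to 8050 FPKM in WT libraries. Most of that difference lay in Lyz2 alone, at 1587 and 1311 FPKM in Dnmt3a KO libraries, against 6477, 5178 and 4523 FPKM in WT libraries. Ly6c2 averaged 979 FPKM in Dnmt3a KO and 1004 FPKM in WT libraries and did not pass. The 7 neutrophil genes with a row summed to 10933 and 14216 FPKM in Dnmt3a KO libraries, against 19143 to 28472 FPKM in WT libraries. S100a8 and S100a9 made up most of that neutrophil sum in every library. S100a8 averaged 5511 FPKM in Dnmt3a KO and 10105 FPKM in WT libraries, and S100a9 averaged 6059 and 10757 FPKM. B cell markers were low: the 2 B cell genes with a row summed to at most 1.7 FPKM in Dnmt3a KO libraries and 2.79 FPKM in WT libraries, and Ms4a1, Pax5 and Ebf1 were among those with no row.

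Fcrls fell to 13.9% of its WT level in Dnmt3a KO cells, Fcgr1 to 36.2%, Fcgrt to 51.7% and Fcgr2b to 70.1%, each percentage being a ratio of mean FPKM. These 4 passed the test in the fit over all 11365 tested genes (limma on log2(FPKM + 1), Benjamini-Hochberg adjusted p under 0.05), all downward, and none of the 6 passed upward. Over all tested genes 22.1% passed in either direction, 13.0% downward and 9.08% upward. The other 2 members, Fcgr3 and Fcgr4, did not pass, so of the 3 activating receptors only Fcgr1 was called. In 5 of the 6 genes both Dnmt3a KO libraries lay below all WT libraries, and Fcgr4 overlapped. Of all tested genes 30.8% had both Dnmt3a KO libraries below all WT libraries and 20.4% above them, 51.1% in all. The median log2 change of the 6 was -0.66, against -0.04 over all tested genes. In whole-culture RNA, fewer cells of a type and less RNA per cell cannot be told apart.

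**Figure D1:**
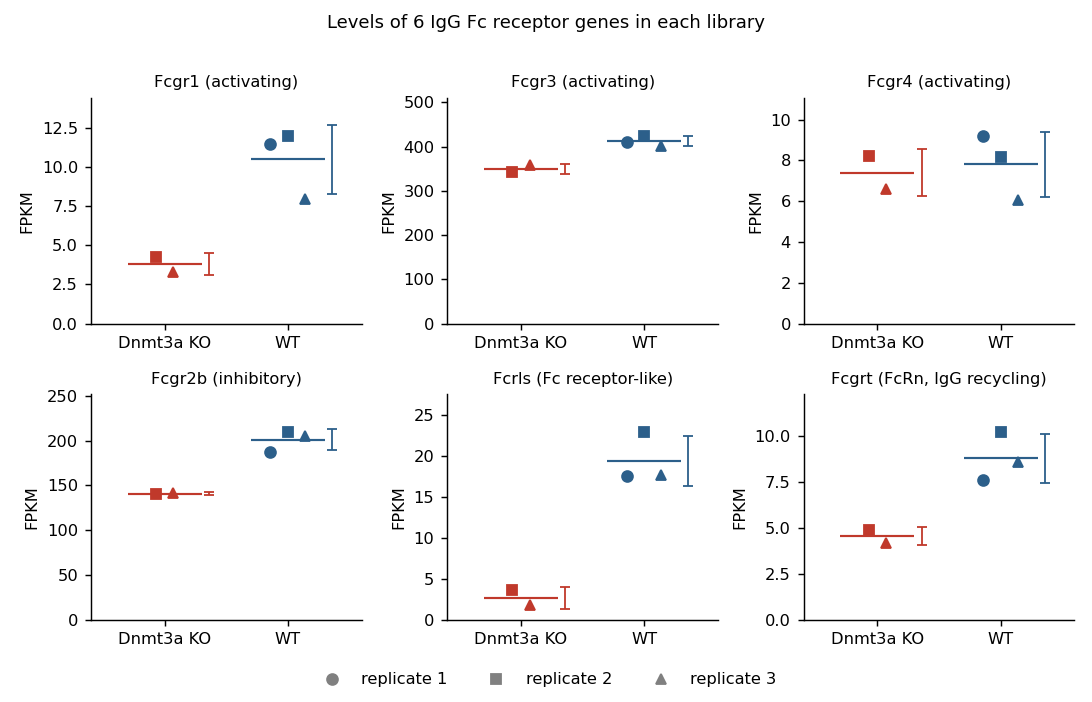
FPKM of each of the 6 genes in every library on axes that start at 0, with Dnmt3a KO on the left and WT on the right of each panel; points are libraries, the horizontal line is the group mean and the bar beside it 1 SD on either side. The 2 Dnmt3a KO points lie below all 3 WT points for every gene except Fcgr4, and the group means are farthest apart in ratio for Fcrls (2.69 against 19.3 FPKM).

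Fcgr3 and Fcgr2b made up nearly all Fc gamma receptor mRNA in both genotypes. Fcgr3, which encodes the low-affinity activating receptor FcgammaRIII, exceeded 98.2 to 98.5% of all rows in the 5 libraries. Fcgr2b exceeded 95.9 to 97.3% of rows. Mouse mast cells, macrophages and neutrophils are all known to carry Fcgr3, and Fcgr2b is the sole classical inhibitory IgG receptor of the mouse. In WT libraries the mean levels ran Fcgr3 (412 FPKM), Fcgr2b (201), Fcrls (19.3), Fcgr1 (10.5), Fcgrt (8.78) and Fcgr4 (7.81), where Fcgr1 overlapped Fcgrt and Fcgrt overlapped Fcgr4. In Dnmt3a KO libraries the order below Fcgr2b was different: Fcgr4 (7.40 FPKM) came next, above Fcgrt (4.54), Fcgr1 (3.81) and Fcrls (2.69), where Fcgrt overlapped Fcgr1 and Fcgr1 overlapped Fcrls.

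Among the activating receptors, Fcgr1 changed most. It encodes the high-affinity IgG receptor FcgammaRI, typical of monocytes and macrophages. Fcgr1 (mouse gene 14129, chr3:96282909-96293969, minus strand, GRCm38.p6) stood at 4.29 and 3.32 FPKM in Dnmt3a KO libraries, against 11.5, 12.02 and 8.0 FPKM in WT libraries. Dnmt3a KO replicate 3 held 0.774 times the level of replicate 2, and the nearest WT library, replicate 3, was well above both. The log2 change was -1.25 ± 0.18 (SE; 95% interval -1.67 to -0.83; limma adjusted p = 0.00323), placing Fcgr1 at rank 186 of the 11365 tested genes counted from the most negative. With sex as a covariate, which sets the Dnmt3a KO libraries against WT replicate 1, the call held at -1.39 (adjusted p = 0.0143). The authors' deposited table gives Fcgr1 a signed fold of -2.761 and an adjusted p of 0.003067.

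Fcgr3 (gene 14131, chr1:171051169-171065915, minus strand) was lower by a small margin that did not pass. It held 342.28 and 358.23 FPKM in Dnmt3a KO libraries, against 410.72, 424.47 and 401.12 FPKM in WT libraries. The groups did not overlap, and the spread within each was narrow (350.3 ± 11.3 FPKM, SD, n = 2, against 412 ± 11.7 FPKM, SD, n = 3). The log2 change was -0.23 ± 0.07 (95% interval -0.41 to -0.06; limma adjusted p = 0.0656). Without Dnmt3a KO replicate 3 the gene passed, at -0.27 (adjusted p = 0.0476), while the adjusted p ranged from 0.0476 to 0.287 over all 17 alternatives.

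Fcgr4, the activating receptor of monocytes and neutrophils in the mouse, showed no detectable difference. Fcgr4 (gene 246256, chr1:171018926-171029761, plus strand) held 8.21 and 6.58 FPKM in Dnmt3a KO libraries, against 9.21, 8.15 and 6.07 FPKM in WT libraries. The values of the groups interleave. The log2 change was -0.06 ± 0.17 (limma adjusted p = 0.842), and its 95% interval, -0.46 to 0.34, leaves room for changes of either sign; the estimate turned to 0.0124 after upper-quartile scaling.

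Fcgr2b, the inhibitory receptor (gene 14130, chr1:170960558-170976071, minus strand), held 140.0 and 141.81 FPKM in Dnmt3a KO libraries, against 187.77, 209.56 and 205.54 FPKM in WT libraries. The 2 Dnmt3a KO values almost coincide, and the lowest WT library, replicate 1, lies clear of them. The log2 change was -0.51 ± 0.08 (95% interval -0.69 to -0.33; limma adjusted p = 0.00415). With sex as a covariate it was -0.41 and no longer passed (adjusted p = 0.0547). The authors' deposited table has a fold of -1.426 for Fcgr2b, with an adjusted p of 0.9766.

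Fcgr3 and Fcgr2b are the 2 members whose reads are hardest to assign, because their extracellular parts are close copies. Over 509 aligned coding bases the transcripts of the pair were 96.5% identical, and 313 bases, which is 39.1% of the Fcgr3 coding sequence and 30.7% of that of Fcgr2b, lay in stretches of at least 50 identical bases. No other gene shared a coding stretch of that length with any member; Fcgr4 was 66.1% identical to Fcgr3 and 66.4% to Fcgr2b where they aligned. The longest identical run, 129 bases on chromosome 1, spans coding bases 263 to 391 of Fcgr3 and 278 to 406 of Fcgr2b and is shown because a read inside it fits either gene equally well:
Fcgr3 and Fcgr2b: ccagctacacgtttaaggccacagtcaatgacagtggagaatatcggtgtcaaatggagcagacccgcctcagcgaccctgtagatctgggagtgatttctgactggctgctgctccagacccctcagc
No source used here states how such reads were divided, and the split between Fcgr3 and Fcgr2b is uncertain to that extent. The antisense gene Gm38204 (chr1:170973373-170977746, plus strand) also overlaps Fcgr2b, and no source used here states whether the counting used strand.

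The balance of activating to inhibitory receptor mRNA was compared in each library as a ratio of FPKM. The summed FPKM of Fcgr1, Fcgr3 and Fcgr4 over that of Fcgr2b was 2.53 and 2.60 in Dnmt3a KO libraries, against 2.30, 2.12 and 2.02 in WT libraries. Both Dnmt3a KO ratios were above all WT ratios. On the log2 scale the ratio averaged 1.36 ± 0.02 in Dnmt3a KO libraries (SD, n = 2) and 1.10 ± 0.09 in WT libraries (SD, n = 3), a difference of 0.26 (two-sided exact permutation p = 0.2, or 0.267 adjusted over the 4 ratios compared). With 3 libraries against 2 there are 10 splits, and 0.2 is the smallest p they allow, so no ratio could pass the 0.05 threshold. Within male libraries, where WT replicate 1 is the only WT library, the difference was 0.16. It changes sign, to -0.0744, when the 3 activating receptors are given equal weight by averaging their log2 levels, since the sum is nearly all Fcgr3.

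The activating receptors were also set against Fcgr2b one by one. The Fcgr3 to Fcgr2b ratio was 2.44 and 2.53 in Dnmt3a KO libraries, against 2.19, 2.03 and 1.95 in WT libraries, a log2 difference of 0.28 without overlap and of 0.18 within male libraries. The Fcgr1 to Fcgr2b ratio was lower instead, at 0.0306 and 0.0234 in Dnmt3a KO libraries against 0.0612, 0.0574 and 0.0389 in WT libraries, a log2 difference of -0.94 without overlap and of -1.19 within male libraries. For both, the two-sided exact permutation p was 0.2 (adjusted 0.267). The Fcgr4 to Fcgr2b ratio overlapped between the groups (log2 difference 0.44, exact permutation p = 0.4; 0.0888 within male libraries).

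**Figure D2:**
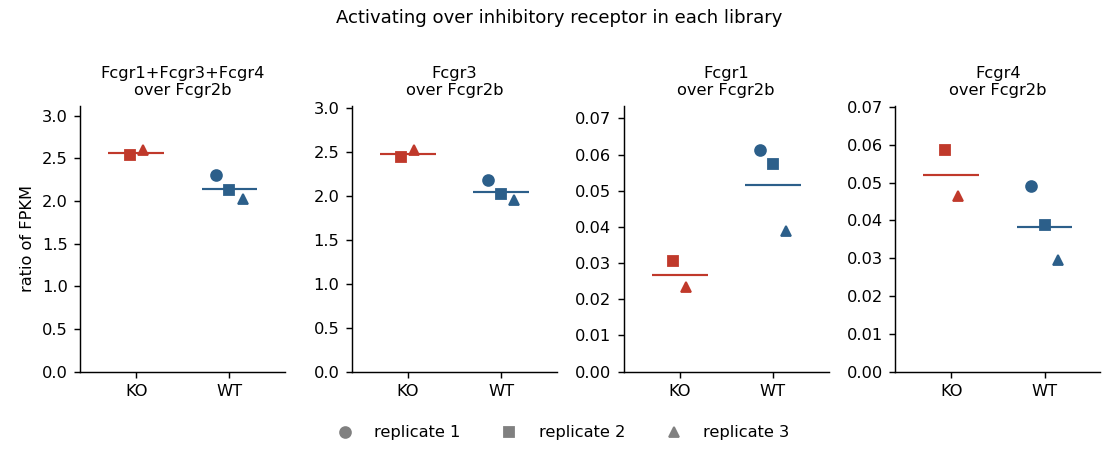
Ratio of activating receptor FPKM to Fcgr2b FPKM in each library, on linear axes from 0, for the sum of the 3 activating receptors and for each alone, Dnmt3a KO (KO) on the left and WT on the right; points are libraries and lines are geometric means. The sum and Fcgr3 are higher in both Dnmt3a KO libraries, Fcgr1 is lower in both, and Fcgr4 overlaps.

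The total of Fc gamma receptor mRNA did not overlap between the groups. The 4 receptors together summed to 494.8 and 509.9 FPKM in Dnmt3a KO libraries, against 619.2, 654.2 and 620.7 FPKM in WT libraries. Fcgr3 made up 69.2 and 70.2% of the sum in Dnmt3a KO libraries, against 66.3, 64.9 and 64.6% in WT libraries. Fcgr2b made up 28.3 and 27.8% in Dnmt3a KO libraries, against 30.3, 32.0 and 33.1% in WT libraries. These shares do not overlap between the groups and were not tested beyond the ratios above. Fcgr1 contributed less than any other receptor in Dnmt3a KO cells, 0.867 and 0.651% of the sum, against 1.86, 1.84 and 1.29% in WT libraries.

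Of the 2 genes outside the classical receptors, Fcrls showed the strongest change of the 6. Fcrls (gene 80891, chr3:87250736-87263765, minus strand) held 3.63 and 1.75 FPKM in Dnmt3a KO libraries, against 17.5, 22.87 and 17.66 FPKM in WT libraries. Even the higher Dnmt3a KO library was far below the lowest WT library, though the Dnmt3a KO libraries differed from each other more than for any other member, replicate 3 holding 0.482 times the level of replicate 2. The log2 change was -2.50 ± 0.22 (95% interval -3.02 to -1.98; limma adjusted p = 0.000542), rank 11 of the 11365 tested genes from the most negative. Its estimate ranged from -2.88 to -2.13 when each library was left out in turn, and the call held in all 17 alternatives (adjusted p 9.33e-05 to 0.00563). The authors' deposited table gives a fold of -7.191 and an adjusted p of 6.48e-26 for Fcrls.

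Fcgrt (gene 14132, chr7:45092993-45103822, minus strand) held 4.89 and 4.19 FPKM in Dnmt3a KO libraries, against 7.57, 10.2 and 8.56 FPKM in WT libraries. The groups were apart, the nearest values being Dnmt3a KO replicate 2 and WT replicate 1. The log2 change was -0.81 ± 0.13 (95% interval -1.13 to -0.50; limma adjusted p = 0.00562). With sex as a covariate it was -0.63 and just missed the threshold (adjusted p = 0.0545). The antisense gene Gm45669 (chr7:45091409-45098320, plus strand) overlaps Fcgrt. The authors' deposited table gives Fcgrt a fold of -1.933 and an adjusted p of 0.00152.

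**Figure D3:**
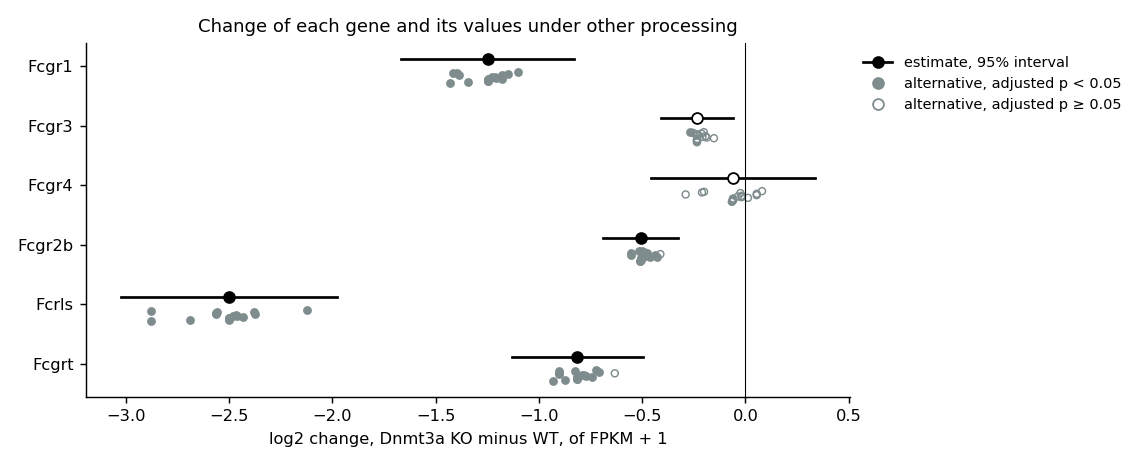
Log2 change of FPKM + 1, Dnmt3a KO minus WT, of the 6 genes with its 95% interval (black), and the same change under each of 17 other ways of processing (grey, filled where the adjusted p was under 0.05). Fcrls, Fcgr1, Fcgr2b, Fcgrt and Fcgr3 stay left of 0 in every alternative, and the estimates for Fcgr4 lie on both sides of it.

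The partners of the members did not all follow them. The gamma chain Fcer1g, which every activating receptor needs at the surface, held 1228 and 896.4 FPKM in Dnmt3a KO libraries, against 996.6, 965.2 and 1044 FPKM in WT libraries. These values overlap, and the log2 change was 0.07 ± 0.14 (limma adjusted p = 0.776). Per activating receptor, Fcer1g stood at 3.46 and 2.43 times the summed receptor FPKM in Dnmt3a KO libraries, against 2.31, 2.17 and 2.51 times in WT libraries, which overlap as well. The gamma chain also serves the IgE receptor. That receptor's alpha chain Fcer1a averaged 2604 ± 105 FPKM in Dnmt3a KO libraries (SD, n = 2) and 1099 ± 74.9 FPKM in WT libraries (SD, n = 3), a log2 change of 1.25 ± 0.10 (adjusted p = 0.000426), and its beta chain Ms4a2 rose by 0.89 ± 0.09 (adjusted p = 0.000909).

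SHIP1, the phosphatase that Fcgr2b recruits, went the opposite way to Fcgr2b. Inpp5d held 83.54 and 94.96 FPKM in Dnmt3a KO libraries, against 67.26, 62.55 and 66.29 FPKM in WT libraries, a log2 change of 0.44 ± 0.08 (limma adjusted p = 0.00923; 0.0891 with sex as a covariate). B2m, the light chain of FcRn and of MHC class I, held 753.3 and 719.3 FPKM in Dnmt3a KO libraries, against 1081, 1015 and 896.2 FPKM in WT libraries. B2m was lower in both Dnmt3a KO libraries, with a log2 change of -0.43 ± 0.10 (limma adjusted p = 0.0245), a call lost in 5 of 17 alternatives (adjusted p up to 0.114; 0.0550 with sex as a covariate).

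Signalling genes downstream of the activating receptors changed in both directions. Of 22 genes for the gamma chain, Src and Syk family kinases, adaptors and phospholipases, 5 rose and 9 fell, with a median log2 change of -0.10 against -0.04 over all tested genes. For this list, and for the lists and neighbours below, the shares over all tested genes were 9.08% upward and 13.0% downward. The phospholipase Plcg1 rose by 1.18 ± 0.10 (39.1 ± 3.80 FPKM in Dnmt3a KO libraries, n = 2, against 16.7 ± 1.31 FPKM in WT libraries, n = 3; limma adjusted p = 0.000446). The adaptor Lat2 rose by 0.44 (adjusted p = 0.0172), a call lost in 3 of 17 alternatives: without WT replicate 2, with the replicate block and with sex as a covariate (0.109). The Src family kinase Fgr fell by 1.16 (11.4 FPKM in Dnmt3a KO libraries against 26.8 FPKM in WT libraries; adjusted p = 0.00057), and the adaptor Blnk fell by 1.10 (adjusted p = 0.00233). The adaptor Grb2 stood at 108 FPKM in Dnmt3a KO libraries against 111 FPKM in WT libraries (adjusted p = 0.666). Of the 22, 1 was called higher without WT replicate 2 or with sex as a covariate, and 3 with the replicate block.

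In the inhibitory arm, 7 genes for phosphatases and Dok adaptors that ITIM-bearing and related receptors recruit, 1 rose (Inpp5d; 2 rose without Dnmt3a KO replicate 2) and 2 fell, and the median was -0.10. Dok2, an adaptor that restrains Ras signalling, fell by 0.82 ± 0.07 (45.0 FPKM in Dnmt3a KO libraries against 80.2 FPKM in WT libraries; limma adjusted p = 0.000583). The tyrosine phosphatase SHP-1, encoded by Ptpn6, fell by 0.48 (adjusted p = 0.0116). Dok3 and Ptpn11 had log2 changes of -0.02 and -0.28 and did not pass (adjusted p = 0.914 and 0.0623).

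Of 18 actin genes of the phagocytic cup, through which Fc receptor cargo is engulfed, 1 rose and 3 fell, and the median was -0.12. That is near the share of all tested genes, of which 22.1% passed in either direction. Actr3, a subunit of the Arp2/3 complex that nucleates actin branches, fell by 0.50 ± 0.08 (limma adjusted p = 0.00447). The myosin Myo1f fell by 0.45 (adjusted p = 0.0124; 0.0618 with sex as a covariate), and Elmo1, part of a Rac activator, rose by 0.28 (adjusted p = 0.0355), a call lost in 8 of 17 alternatives (0.130 with sex as a covariate). With that covariate 1 of the 18 fell and none rose. Cfl1, which severs actin filaments, had a log2 change of -0.17 (adjusted p = 0.208), and Coro1a of -0.24 (adjusted p = 0.139).

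Of 10 genes for the FcRn light chain and recycling endosomes, 9 were tested, none rose, 3 fell, and the median was -0.37. Ehd4, an endosomal ATPase, fell by 0.83 ± 0.07 (22.1 FPKM in Dnmt3a KO libraries against 40.3 FPKM in WT libraries; limma adjusted p = 0.000426). The retromer subunit Vps35 and the recycling GTPase Rab11a had log2 changes of -0.19 and 0.03 and did not pass (adjusted p = 0.139 and 0.802). Without WT replicate 1, WT replicate 2 or Dnmt3a KO replicate 3 the number that fell was 1.

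Other receptor families of myeloid cells gave a setting for the members. Of 17 other inhibitory receptors, most of them with an ITIM, 16 were tested, 2 rose and 7 fell, and the median was -0.19. Without Dnmt3a KO replicate 3 the number that fell was 4, and without any one WT library, with the replicate block or with sex as a covariate the number that rose was 1. The lectin receptor Clec4a2 fell by 1.21 ± 0.16 (22.6 FPKM in Dnmt3a KO libraries against 52.9 FPKM in WT libraries; limma adjusted p = 0.00246), and Pilra by 1.00 (adjusted p = 0.0138; 0.0890 without Dnmt3a KO replicate 3). Pecam1 rose by 0.59 ± 0.09 (adjusted p = 0.0036), and Cd200r1 by 0.30 (adjusted p = 0.02), which 5 of 17 alternatives lost (0.119 with sex as a covariate). The abundant Lilrb4a and Milr1, an inhibitory receptor of mast cells, had log2 changes of 0.26 and 0.07 (adjusted p = 0.156 and 0.740).

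Of 16 other activating chains and the receptors that pair with them, 14 were tested, 1 rose and 6 fell, and the median was -0.52. Trem2, a macrophage receptor that signals through Tyrobp, fell by 2.10 ± 0.15 (22.9 FPKM in Dnmt3a KO libraries against 100.2 FPKM in WT libraries; limma adjusted p = 0.000326). Clec4n, which encodes Dectin-2 and signals through Fcer1g, fell by 1.99 ± 0.20 (45.2 FPKM in Dnmt3a KO libraries against 183 FPKM in WT libraries; adjusted p = 0.000859). The adaptor chain Tyrobp itself had a log2 change of -0.19 (adjusted p = 0.155), so for Tyrobp as for Fcer1g the chain did not pass while receptors that use it did. Hcst, another adaptor chain, rose by 0.39 (adjusted p = 0.0407), a call lost in 6 of 17 alternatives (0.304 with sex as a covariate).

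Receptors for other immunoglobulin classes and related genes went upward where they were called: of 12, 8 had a row, 4 were tested and 3 rose, with a median of 0.73. These were Fcer1a, Ms4a2 and Fcrlb, of which Fcer1a and Ms4a2 are also counted among the mast cell genes. Fcrlb, an intracellular Fc receptor-like gene, held 1.36 and 1.05 FPKM in Dnmt3a KO libraries, against 0.49, 0.51 and 0.47 FPKM in WT libraries, a log2 change of 0.56 ± 0.15 (limma adjusted p = 0.0362) that 6 of the 14 alternatives that tested it lost, sex as a covariate among them (0.160). Trim21, a cytosolic antibody receptor, had a log2 change of 0.05 (adjusted p = 0.776).

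**Figure D4:**
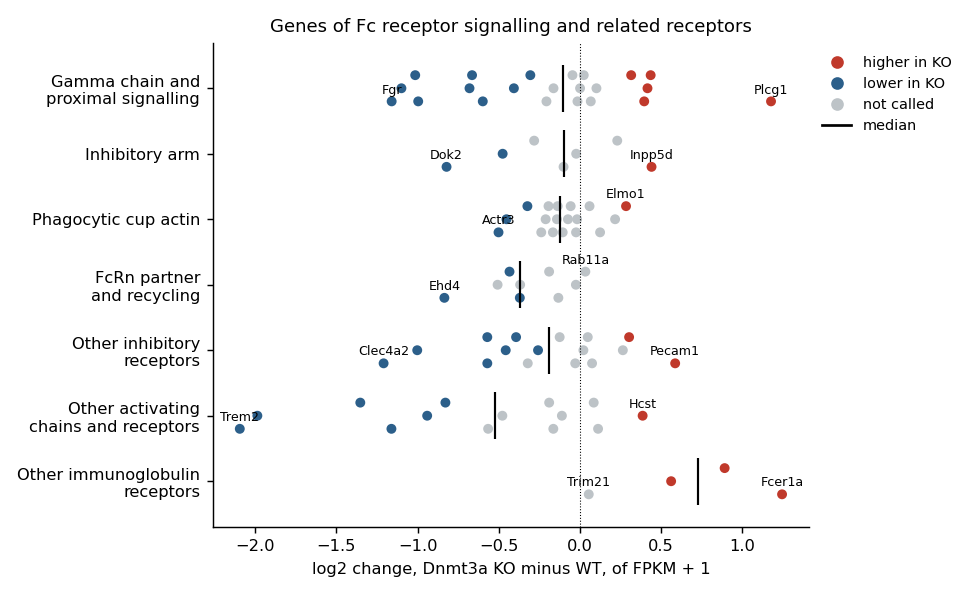
Log2 change of FPKM + 1, Dnmt3a KO minus WT, of each tested gene in 7 lists related to Fc receptor function; red points rose, blue points fell, grey points did not pass the test, and the black line is the list median. The signalling list spreads from Fgr (-1.16) to Plcg1 (1.18), and the lowest points are Trem2 (-2.10) and Clec4n (-1.99).

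Cell type markers also differed between the groups. Of the 12 monocyte and macrophage genes 8 fell, 1 rose and the median was -1.19. Lyz2 fell by 1.89 ± 0.17, Csf1r, the macrophage growth factor receptor, fell by 1.79 ± 0.11, while Cx3cr1 rose by 1.41 ± 0.10 (limma adjusted p = 0.000603, 0.000236 and 0.000321). Ly6c2 and Adgre1 had log2 changes of -0.04 and -0.05 (adjusted p = 0.833 and 0.801). The 7 neutrophil genes with a row all fell, with a median of -0.87, though 3 were called without WT replicate 2, without Dnmt3a KO replicate 3 or with no filter on low values. The 3 tested genes of the dendritic cell list, Itgax, Ciita and H2-Aa, fell as well. H2-Aa fell by 3.30 ± 0.34 (37.0 FPKM in Dnmt3a KO libraries against 340.7 FPKM in WT libraries). The dendritic list summed to between 28.0 and 63.3 FPKM in Dnmt3a KO libraries against 318 to 427 FPKM in WT libraries. H2-Aa made up most of that sum in every library. Flt3, Zbtb46, Xcr1 and Cd209a were below the filter and not tested, and Siglech had no row. Of the 8 mast cell genes 5 rose and none fell, with a median of 1.05, led by Cpa3 at 1.39 ± 0.14 and Tpsb2 at 1.30 ± 0.13. Of the 6 eosinophil genes 1 rose, Ccr3 (1.00 ± 0.24), a call lost in 3 of 17 alternatives, and their sums overlapped, at 6915 and 9158 FPKM in Dnmt3a KO libraries against 5089 to 7477 FPKM in WT libraries. The NK list held 1 gene at 1 FPKM or more in every library, Nkg7, which fell by 0.59 (adjusted p = 0.00969; 0.0558 without Dnmt3a KO replicate 3), and no T cell gene was tested. The other tested NK gene, Gzma, went the other way, with a log2 change of 1.00 ± 0.30, and did not pass (limma adjusted p = 0.0544). It held 2.84 and 1.15 FPKM in Dnmt3a KO libraries, against 0.08, 0.52 and 0.79 FPKM in WT libraries. A call was gained in 3 of the 14 alternatives that tested Gzma. No marker with a row was at 0 in every library. The part of these shifts in the values of Fcgr1, Fcrls, Fcgr2b and Fcgrt was not tested.

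By position, 3 members lie in one cluster on chromosome 1. Distances between genes are given here between their lowest coordinates, whichever strand each gene is on. By that measure Fcgr4 lies 58.4 kb and Fcgr3 90.6 kb from Fcgr2b, and Fcer1g lies 178.4 kb from Fcgr3. Within 200 kb of these receptors 12 other genes had a row and 7 were tested: Fcrlb rose, and Sdhc, a mitochondrial enzyme subunit, fell by 0.37 ± 0.09 (limma adjusted p = 0.0233), a call lost in 6 of 17 alternatives (0.146 with sex as a covariate). Fcrlb, 53.8 kb from Fcgr2b on the side away from Fcgr4, was therefore higher in Dnmt3a KO cells while Fcgr2b was lower. Around Fcgr1, on chromosome 3, 7 of 13 genes were tested and 1 passed, Sf3b4 (-0.32, adjusted p = 0.0257), with the call lost in 9 of 17 alternatives (0.0522 with sex as a covariate). Fcrls had 1 tested neighbour, Cd5l, a macrophage-secreted scavenger protein, which stood at 0.42 and 0.55 FPKM in Dnmt3a KO libraries against 0.56, 1.68 and 1.72 FPKM in WT libraries (adjusted p = 0.152).

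Around Fcgrt on chromosome 7, 20 of 23 genes were tested, of which 5 rose and 1 fell. Over all tested genes 9.08% rose and 13.0% fell. The nearest of them was Rcn3, a calcium-binding protein of the endoplasmic reticulum, whose lowest coordinate lies 10.1 kb from that of Fcgrt. Its span ends at base 45092322, shortly before the span of Fcgrt begins at base 45092993. Rcn3 held 4.66 and 4.81 FPKM in Dnmt3a KO libraries, against 1.27, 1.47 and 1.82 FPKM in WT libraries, a log2 change of 1.19 ± 0.13 (limma adjusted p = 0.00114) that kept its call in all 16 alternatives that tested it. Fcgrt and its close neighbour thus changed in opposite directions. Cpt1c (0.87), Dkkl1 (0.85), Flt3l (0.37) and Cd37 (0.39) rose and Rras fell by 0.68, and each of these lost its call in 2 to 5 of the alternatives that tested it. With sex as a covariate the limma adjusted p was 0.149 for Cpt1c, 0.125 for Dkkl1, 0.178 for Flt3l and 0.136 for Cd37.

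**Figure D5:**
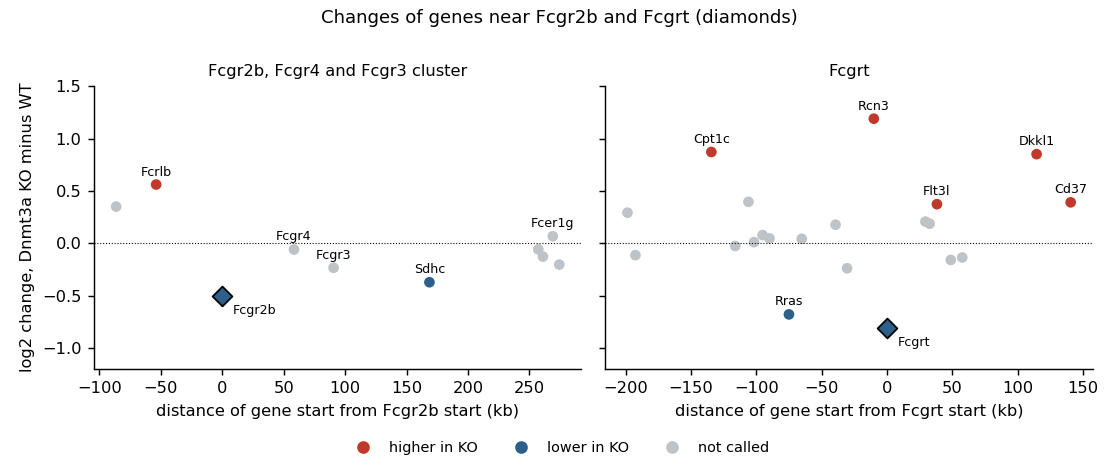
Log2 change of FPKM + 1, Dnmt3a KO minus WT, of each tested gene within 200 kb of the chromosome 1 receptors (left) or of Fcgrt (right). The horizontal axis is the distance in kb of its lowest coordinate from that of Fcgr2b or Fcgrt. Diamonds are Fcgr2b and Fcgrt, and red and blue genes passed the test. On the right Rcn3 (1.19) lies next to Fcgrt (-0.81), and on the left Fcrlb (0.56) lies on the other side of 0 from Fcgr2b (-0.51).

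The genes closest to each member in pattern were found by the Euclidean distance between log2(FPKM + 1) profiles over the 5 libraries, each profile centred on its own mean. For Fcrls the closest tested genes were Olfm1 (distance 0.256; 4.92 FPKM on average in Dnmt3a KO libraries against 29.2 FPKM in WT libraries), F7, which encodes coagulation factor VII (0.262), and the lectin receptor gene Clec4b1 (0.340). For Fcgr1 they were Pmp22 (0.164), Sqrdl (0.174) and Abca3 (0.220), and for Fcgrt they included Tacc2 (0.109) and Rgl1 (0.133). Fcgr2b lay closest to Dirc2 (0.0393), the lipoprotein receptor gene Scarb1 (0.0410) and Rnh1 (0.0617). Fcgr3 lay closest to Gabpa (0.00306), properdin, encoded by Cfp (0.0164), and Tbc1d24 (0.0243), and those close to Fcgr4 included Dctpp1 (0.113) and Rhebl1 (0.127). No member was among the 3 closest genes of another. Small changes leave little room for distance, so distances are not comparable between members.

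Promoter sequence was read for all 6 members from RefSeq (GRCm38.p6) over 250 bases before the listed start, on the strand of the gene. The hexamer GAGGAA on either strand, the core of the site of the myeloid factor PU.1, was found in 4 of 6, Fcgr1, Fcgr3, Fcgr4 and Fcrls, and in 23.1% of 27025 mouse promoters of the same length. The ETS and IRF composite element, spelled GGAA, any 2 bases and GAAA and searched on either strand, was found in Fcgr2b alone of the 6 and in 2.38% of all promoters. None of the 6 held both motifs, and Fcgrt held neither. The last 150 bases before the start are shown for these 5 because they set the 3 activating receptors and Fcrls beside the inhibitory receptor, with the match in capitals (TTCCTC is GAGGAA, and TTTCACTTCC a match to the composite element, on the opposite strand):
Fcgr1, chr3:96293970-96294119, minus strand: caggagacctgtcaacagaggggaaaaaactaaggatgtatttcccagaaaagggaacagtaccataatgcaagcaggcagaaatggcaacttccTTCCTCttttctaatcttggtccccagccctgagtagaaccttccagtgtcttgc
Fcgr3, chr1:171059404-171059553, minus strand: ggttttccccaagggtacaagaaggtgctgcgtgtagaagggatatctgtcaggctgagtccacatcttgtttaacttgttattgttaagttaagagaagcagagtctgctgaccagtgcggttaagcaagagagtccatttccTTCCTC
Fcgr4, chr1:171018776-171018925, plus strand: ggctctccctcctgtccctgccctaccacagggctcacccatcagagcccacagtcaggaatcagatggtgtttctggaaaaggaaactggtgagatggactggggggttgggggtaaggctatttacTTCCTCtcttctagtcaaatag
Fcgr2b, chr1:170976072-170976221, minus strand: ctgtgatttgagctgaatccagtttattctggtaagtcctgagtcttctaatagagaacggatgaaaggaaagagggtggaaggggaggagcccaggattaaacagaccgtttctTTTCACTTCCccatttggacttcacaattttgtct
Fcrls, chr3:87263525-87263674, minus strand: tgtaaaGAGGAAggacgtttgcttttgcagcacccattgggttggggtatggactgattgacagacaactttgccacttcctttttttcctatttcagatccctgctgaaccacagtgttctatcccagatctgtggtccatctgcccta
The match ends 1 base before the start in Fcgr3, 17 bases before it in Fcgr4, 26 in Fcgr2b and 50 in Fcgr1, and lies farther off, 139 bases before it, in Fcrls. The starts used for Fcgr3 and Fcrls lie inside the annotated span of the gene. Fcgr3 had 2 listed promoters, of which only the first was searched, and each other member had 1. Genes with the GAGGAA letters include Fcrls and Fcgr1, which fell, and Fcgr3 and Fcgr4, which did not pass, so the match does not separate them. CpG dinucleotides numbered 1 in Fcgr1 and in Fcgr4, 4 in Fcgr3 and 5 in Fcgr2b, Fcrls and Fcgrt over the 250 bases, against a median of 6 over all promoters (quartiles 2 and 16).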

How the data were processed

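RNA was sequenced from mouse bone marrow cultures of 2 genotypes. Per the labels' protocols, oligo(dT)-selected mRNA was made into libraries with a SMARTER kit and sequenced on an Illumina HiSeq instrument. Build mm10 and the tools edgeR, HISAT and StringTie 1.2.1 are listed, per the submitters' processing notes, without their roles. No source used here states the settings, the annotation or the use of strand. Per the file headers, the authors deposited FPKM, 1 value per gene and library with 2 decimals. The authors also deposited p-values and adjusted p-values, a signed fold score that equals the ratio of group mean FPKM for 99.73% of rows within a relative tolerance of 0.001, and a log fold change score that is not used because its sign is opposite to that fold for 84.1% of rows. The low FPKM values showed no steps of whole reads, so the depth and counting error of each library are unknown, and edgeR was not run here.

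The labels name 3 samples per group. Dnmt3a KO replicate 1 was not analysed here. Nothing says that replicates came from separate animals, so p-values reflect only the spread among these samples, in part perhaps technical. Differential expression used limma 3.58.1 in R 4.3.3 with 1 FPKM added before the log2 step. The model had a term for genotype alone, which left 3 residual degrees of freedom, and variances were moderated by empirical Bayes along a mean-variance trend. The 11365 genes at 1 FPKM or more in 2 or more libraries were tested. Benjamini-Hochberg adjustment ran over all of them, and an adjusted p under 0.05 was a call. The scale understates changes of low genes. The procedure was tested on simulated data with noise of equal size for every gene and no sex difference, a simpler setting than these libraries. Ratios were tested by exact permutation over libraries (scipy 1.17.1). Of 14639 gene numbers, 14603 matched GRCm38.p6. Promoters came from RefSeq for that assembly, coding sequences from GENCODE M21, aligned with Biopython 1.88.

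The members and gene lists were chosen with earlier results of these data known. Of each list, the up to 2 called genes with the most positive and the up to 2 with the most negative change are named, with up to 2 uncalled genes of highest level, called neighbours within 200 kb, up to 3 genes closest in pattern to each member, and always Fcer1g, Inpp5d and B2m. Cd5l is named as the only tested neighbour of Fcrls, and a few further values were chosen after they were seen. Alternatives covered the pseudocount (0.1 and 0.5), the filter, the variance model, 4 scalings, a replicate block, sex as a covariate and leaving out each library. A few genes that this rule names are not reported here.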

Additional observations from a re-analysis of the deposited data

How the results depend on the processing

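The calls of Fcgr1 and Fcrls held in all 17 alternatives (log2 changes of -1.43 to -1.10 and -2.88 to -2.13). Fcgr2b and Fcgrt kept their direction in all 17 and lost the call with sex as a covariate alone (-0.41, adjusted p = 0.0547, and -0.63, adjusted p = 0.0545). Leaving out each library in turn gave -1.42 to -1.10 for Fcgr1, -0.56 to -0.48 for Fcgr2b, -2.88 to -2.13 for Fcrls, -0.90 to -0.71 for Fcgrt and -0.27 to -0.20 for Fcgr3, which passed without Dnmt3a KO replicate 3. Fcgr4, never called, turned positive after upper-quartile scaling (0.0124), with the replicate block (0.0550) and in leave-one-out fits (-0.21 to 0.0807). Over all genes, sex as a covariate left 1312 calls (520 higher, 792 lower) of 2507 (1032 higher, 1475 lower). Leaving out each library gave 1623 to 2659 calls (679 to 978 higher, 944 to 1681 lower), the fewest without WT replicate 2. Upper-quartile scaling made 1298 calls higher and 1107 lower (54.0% higher, against 41.2%), moving the median of all tested genes to 0.03. For the ratio of summed activating receptors to Fcgr2b, the log2 difference, Dnmt3a KO minus WT, was 0.16 within male libraries. It was -0.0744 with a mean of log2 values over all libraries. The male libraries hold WT replicate 1 as their only WT library. Within them the log2 differences for the ratios of Fcgr3 and Fcgr4 alone to Fcgr2b were 0.18 and 0.0888. The cause of these shifts was not tested. Replicate numbers are shared by 2 libraries of each group, whose deviations from the group means correlated at -0.0292 for replicate 2 and 0.0985 for replicate 3. With 2 Dnmt3a KO libraries the deviations of replicate 2 mirror those of replicate 3. The correlations are therefore not separate checks and cannot show whether the numbers mark pairs. The numbers were not treated as pairs. The replicate block gave 2058 calls and -1.18 for Fcgr1, -0.56 for Fcgr2b, -2.56 for Fcrls, -0.90 for Fcgrt and -0.24 for Fcgr3, changing no member's call. Of 510 list counts under the alternatives, 466 were within 1.5 times the count reported. Counts of 0 that stayed at 0 are among the 466, so the figure overstates the stability of the other counts. Depth is unknown, so counting error at low FPKM, as for Fcrls in Dnmt3a KO libraries, could not be given.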
